A study of Mus musculus with 6 samples.

Results

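Lyz1, Mmp7, Ang4 and Itln1 encode products of the Paneth cell that act on microbes, or on the peptides that do, without being defensins themselves. Lyz2, the lysozyme typical of macrophages and other myeloid cells, was taken with them. The 5 genes were chosen by name, and all 5 were found among the 1420 genes of the deposited table. mRNA was measured by RNA-seq in small intestinal organoids, which are epithelial cultures grown in gel from crypts, with 3 libraries of wild-type (WT) and 3 of Smarcad1 knockout (KO) cultures, all on the C57BL/6 strain. Smarcad1 is a chromatin remodelling ATPase, and the comparison asked how its loss alters epithelial expression where microbiota and immune cells are absent. For KO the genotype label reads Vil-Cre, a driver of the intestinal epithelium, whereas the growth protocol and the study's methods give ZP3-Cre, a driver of the oocyte, with littermates as controls. The cultures of both groups were kept in ENR medium (EGF, Noggin and R-spondin-1). They were collected 5 days after being broken up and reseeded, with no other treatment named. The sources used here do not tie a library to an animal or a litter, so p-values measure the spread between these samples, which may be technical.

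Paneth cells sit at the base of small intestinal crypts beside the stem cells and release granules filled with antimicrobial proteins. Defensins make up much of the granule content. The other products include lysozyme, which cuts the bacterial cell wall, matrilysin, the protease that activates mouse alpha-defensins, angiogenin 4, a bactericidal ribonuclease, and intelectin, a lectin that binds microbial sugars.

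Lyz1 and Lyz2 are adjacent paralogs on chromosome 10, and their sequences are shown because 1 transcript is rare and the other very abundant. The coding sequences were identical at 422 of 444 bases, and the longest identical run was 118 bases. Of the 50-base windows of the annotated transcripts, 195 were present in both genes, 16.1% of those of Lyz1 and 15.4% of those of Lyz2. For libraries of sorted cells the study's methods give reads of 50 bases. The stretch below was picked as the 90 coding bases within 1 exon that hold the most differences. It lies in exon 1, from coding base 43 to 132, at chr10:117292707-117292796 in Lyz1 and chr10:117282111-117282200 in Lyz2 (GRCm38, minus strand). Capitals mark the 13 bases that differ between the genes, out of 22 over the whole coding sequence.
Lyz1: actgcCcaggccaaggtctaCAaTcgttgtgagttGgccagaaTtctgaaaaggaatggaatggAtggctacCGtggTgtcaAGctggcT
Lyz2: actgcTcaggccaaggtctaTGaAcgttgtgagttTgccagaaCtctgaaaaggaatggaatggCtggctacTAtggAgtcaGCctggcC
Upstream of the genes the likeness was lower. The next stretch runs from 169 to 50 bases before the RefSeq start, at chr10:117292918-117293037 in Lyz1 and chr10:117282322-117282441 in Lyz2 (GRCm38.p6, minus strand), and 99 of 121 aligned positions (81.8%) were identical. Capitals mark bases that differ or have no partner in the other gene.
Lyz1: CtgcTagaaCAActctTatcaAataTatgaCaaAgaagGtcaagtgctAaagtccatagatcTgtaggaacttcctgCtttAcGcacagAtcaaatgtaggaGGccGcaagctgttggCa
Lyz2: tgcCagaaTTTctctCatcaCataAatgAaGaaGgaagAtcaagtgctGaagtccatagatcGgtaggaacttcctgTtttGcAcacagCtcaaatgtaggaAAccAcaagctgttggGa

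For the remaining 3 genes the 120 bases before the RefSeq start are shown, since all 3 were higher in KO. They lie at chr9:7691970-7692089 on the plus strand for Mmp7, and on the minus strand at chr14:51773591-51773710 for Ang4 and chr1:171535295-171535414 for Itln1 (GRCm38.p6). Capitals mark TATAAA, a form of the TATA box.
Mmp7: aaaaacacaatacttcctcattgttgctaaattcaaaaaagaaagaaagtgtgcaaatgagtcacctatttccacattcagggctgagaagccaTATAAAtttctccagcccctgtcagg
Ang4: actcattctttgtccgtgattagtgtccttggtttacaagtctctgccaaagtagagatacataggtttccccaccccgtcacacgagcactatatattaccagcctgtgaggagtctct
Itln1: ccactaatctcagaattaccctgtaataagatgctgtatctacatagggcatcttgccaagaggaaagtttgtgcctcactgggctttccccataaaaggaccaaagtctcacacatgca
In the 250 bases before the start, searched on both strands, TATAAA was found in Mmp7 alone of the 5 genes, beginning 26 and 123 bases before it. TCAAAG, the core of TCF/LEF sites, and CAGCTG, an E-box, were found in none of the 5. Of 32851 promoters searched over the same length, 12.4% held TATAAA, 13.8% held TCAAAG and 13.0% held CAGCTG. These are matches of letters and not measured binding, and other forms of the TATA box were not searched.

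The libraries held 1.24e+07 to 1.57e+07 reads each, as inferred from the step between low values, and a floor of 3 reads corresponded to 0.192 to 0.242 RPM (reads per 1e+06 reads of a library). Smarcad1 itself, at 98.8 ± 5.80 RPM in WT and 22.3 ± 1.49 RPM in KO (SD, n = 3 each), changed by -2.14 on the log2 scale (limma adjusted p = 5.59e-05), in the direction of the labels. The deposited table lists only genes that the authors had already called on these libraries. For this reason 99.9% of the listed genes passed the limma test in either direction, and a pass here is no independent evidence of a change.

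All 5 products were higher in KO than in WT. Their ratios of KO to WT means ran from 1.94 for Ang4 to 2.83 for Lyz2, and their median log2 change was 1.20, beside 0.38 over all listed genes and 0.77 over the listed genes that were higher in KO. All 5 passed the limma test in that direction, as did 52.5% of all listed genes. All 5 also had every KO library above every WT library, beside 51.3% of all listed genes, and 4 of 5 had a log2 change of at least 1 with that test passed, beside 19.0%. The organoids mix several cell types, and more cells of a type cannot be told apart from more RNA per cell.

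**Figure D1:**
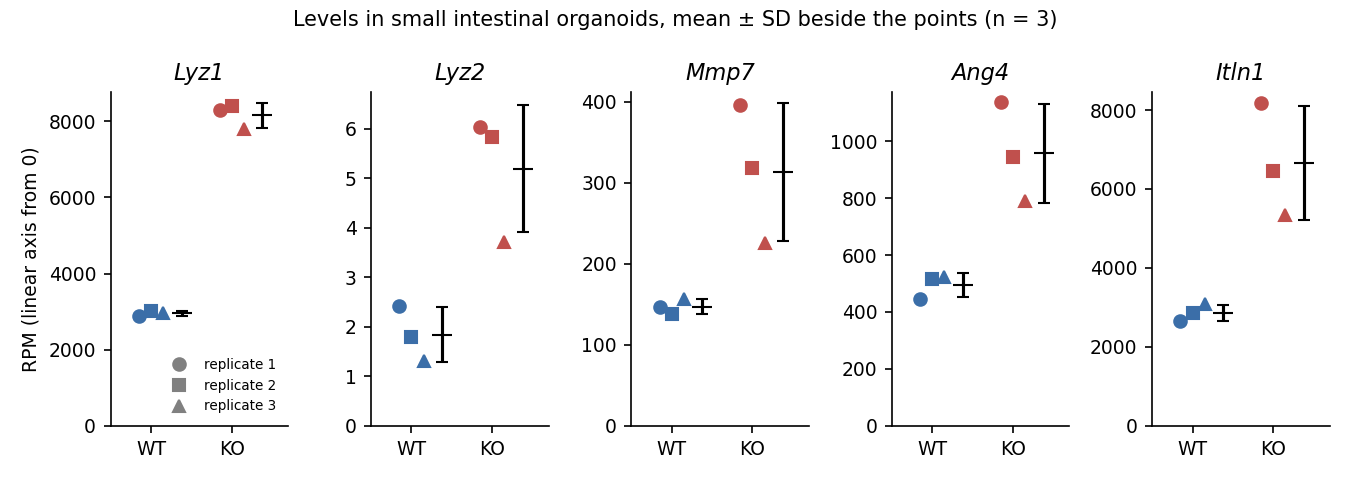
RPM of the 5 products (linear axes from 0, a scale for each gene) in the 3 WT and 3 KO libraries, with the mean and SD beside the points. In each panel the KO points lie above the WT points, from 2.83-fold for the means of Lyz2 to 1.94-fold for those of Ang4.

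Lyz1, the lysozyme typical of Paneth cells (ENSMUSG00000069515, chr10:117287797-117292868, minus strand, 4 exons), was measured at 2885, 3006 and 2968 RPM in WT and at 8302, 8404 and 7794 RPM in KO. The lowest KO library was 2.59-fold above the highest WT library, and replicates lay close together in both groups. The means were 2953 ± 62.2 RPM in WT and 8167 ± 327 RPM in KO (SD, n = 3 each). Lyz1 thus rose by 1.47 ± 0.09 (SE) on the log2 scale, with a 95% interval of 1.25 to 1.69 and a limma adjusted p = 0.000117. It was 0.84 once a trend of the changes with transcript length had been removed (limma adjusted p = 0.00100). The two-sided exact permutation test gave p = 0.1, the smallest value possible with 3 against 3 libraries, for each of the 5 genes.

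Lyz2, the lysozyme typical of macrophages and other myeloid cells (ENSMUSG00000069516, chr10:117277331-117282321, minus strand, 4 exons), was measured at 2.41, 1.79 and 1.31 RPM in WT and at 6.04, 5.83 and 3.71 RPM in KO. These levels rest on 31, 28 and 20 reads in WT and on 75, 85 and 53 reads in KO. The groups did not overlap, but counting error alone leaves the lowest KO value an exact Poisson 95% interval of 2.78 to 4.86 RPM and the highest WT value one of 1.64 to 3.42 RPM. The means were 1.83 ± 0.553 and 5.19 ± 1.29 RPM (SD, n = 3 each), and the log2 change was 1.46 ± 0.27 (SE; limma adjusted p = 0.00426). The change was 0.85 without the length trend (limma adjusted p = 0.0145).

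Lyz2 was a very small share of Lyz1 in every library. Its RPM equalled 0.0835%, 0.0595% and 0.0440% of that of Lyz1 in WT and 0.0727%, 0.0694% and 0.0476% in KO. The KO shares fell inside the WT range. The mean log2 ratio of Lyz1 to Lyz2 differed by 0.01 between the groups, with SDs of 0.44 in WT and 0.33 in KO (n = 3 each, exact permutation p = 1). Whether reads of Lyz1, whose coding sequence is shown above beside that of Lyz2, contributed to the Lyz2 values was not tested. Of 18 other leukocyte markers 1 was listed, Itgam, an integrin subunit of myeloid cells. Itgam moved the other way, from 9.52 ± 1.07 to 4.40 ± 1.51 RPM (SD, n = 3 each; log2 change -1.15, limma adjusted p = 0.00755).

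Mmp7, or matrilysin (ENSMUSG00000018623, chr9:7692090-7699585, plus strand, 6 exons), was measured at 146, 138 and 156 RPM in WT and at 396, 318 and 225 RPM in KO. The KO libraries spread widely, and the lowest was 1.45-fold above the highest WT library. The means were 147 ± 9.21 and 313 ± 85.5 RPM (SD, n = 3 each), and the log2 change was 1.06 ± 0.21 (SE; limma adjusted p = 0.00509). Without the length trend the change was 0.38 (limma adjusted p = 0.0254). Of the exon bases of Mmp7, 123 (11.5%) overlap AV064505, an antisense transcript that the table names as the feature beside this gene. The libraries were directional, but the sources used here do not state whether counting used the strand.

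Ang4, angiogenin 4 (ENSMUSG00000060615, chr14:51763878-51773590, minus strand, 2 exons), was measured at 446, 516 and 523 RPM in WT and at 1139, 944 and 790 RPM in KO. The lowest KO library was 1.51-fold above the highest WT library. The means were 495 ± 42.6 and 958 ± 175 RPM (SD, n = 3 each). Among the 5 products this was the smallest log2 change, 0.94 ± 0.16 (SE; limma adjusted p = 0.00325). It was also the 1 call that did not hold throughout. Without the length trend the change was 0.16 with a limma adjusted p = 0.146.

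Itln1, intelectin 1 (ENSMUSG00000038209, chr1:171518122-171535294, minus strand, 8 exons), was measured at 2645, 2856 and 3072 RPM in WT and at 8182, 6465 and 5331 RPM in KO. The lowest KO library was 1.74-fold above the highest WT library, and the KO libraries differed among themselves far more than for Lyz1. The means were 2857 ± 214 and 6659 ± 1436 RPM (SD, n = 3 each), and the log2 change was 1.20 ± 0.17 (SE; limma adjusted p = 0.00215). Without the length trend the change was 0.54 (limma adjusted p = 0.00320).

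Ang4 and Itln1 also have relatives that share whole 50-base windows, though fewer than Lyz1 and Lyz2. Ang4 shared 30 of its 660 windows with Ang5 and 1 with Ang2, and Itln1 shared 11 of its 1132 windows with Gm9765. Mmp7 shared none on its own strand.

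Per length, Lyz1 and Itln1 were the leading products in both groups. In WT, Itln1 stood at 2504 ± 187 and Lyz1 at 2338 ± 49.3 RPM per kb of exon (SD, n = 3 each), and their libraries overlapped. In KO the order of the means was the other way round, with Lyz1 at 6466 ± 259 and Itln1 at 5836 ± 1258 RPM per kb, and the libraries again overlapped. Below them, with no overlap between neighbours in either group, came Ang4 (698 ± 60.1 in WT and 1351 ± 247 RPM per kb in KO), Mmp7 (137 ± 8.63 and 293 ± 80.1 RPM per kb) and Lyz2 (1.39 ± 0.421 and 3.95 ± 0.978 RPM per kb). Among the 1393 listed genes with a length, Lyz1 ranked 5 in WT and 2 in KO, Itln1 4 and 3, Ang4 21 and 9, Mmp7 139 and 60, and Lyz2 1199 and 1101.

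Together the 5 genes took up 0.612% to 0.672% of the reads of a WT library and 1.41% to 1.80% of those of a KO library. The summed level was 6453 ± 303 RPM in WT and 16102 ± 1941 RPM in KO (SD, n = 3 each), a ratio of 2.50. Lyz1 and Itln1 made up 89.9% to 90.3% of the sum in WT and 91.4% to 92.8% in KO. The share of Ang4 was 7.66% ± 0.335 in WT and 5.92% ± 0.373 in KO (SD, n = 3 each), whereas that of Mmp7 was 2.27% ± 0.145 and 1.92% ± 0.305.

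The KO libraries did not carry the rise equally. KO replicate 1 was the highest of all 6 libraries for Lyz2, Mmp7, Ang4 and Itln1, and KO replicate 3 was the lowest KO library for all 5 genes. Of the 747 listed genes that were higher in KO, 43.8% also had replicate 1 as the highest and replicate 3 as the lowest of the KO libraries. On the log2 scale, relative to the WT mean of each gene, Mmp7 stood at 1.44 in KO replicate 1 and 0.62 in KO replicate 3, and Itln1 at 1.52 and 0.90. Lyz1 hardly differed between them, at 1.49 and 1.40. The coefficient of variation in KO was 4.00% for Lyz1 and 18.3% to 27.3% for the other 4 genes, beside a median of 13.4% over all listed genes.

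**Figure D2:**
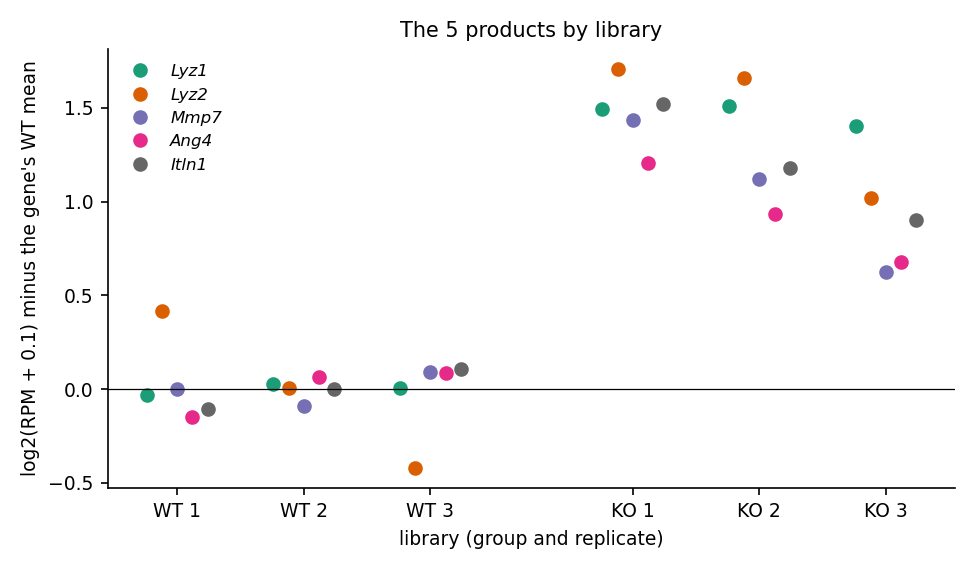
Level of each of the 5 products in each library, as log2(RPM + 0.1) minus the mean of the gene over the WT libraries. The Lyz1 points of the KO libraries stay between 1.40 and 1.51, while those of Mmp7 run from 0.62 to 1.44.

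The ratio of 2 products within a library is free of the scaling of that library, and all 10 pairs were compared. In 2 of 10 pairs the WT and KO ratios did not overlap. The log2 ratio of Lyz1 to Ang4 was 2.69, 2.54 and 2.51 in WT and 2.87, 3.15 and 3.30 in KO, a difference of 0.53. The log2 ratio of Ang4 to Itln1 was -2.57, -2.47 and -2.56 in WT and -2.84, -2.78 and -2.75 in KO, a difference of -0.26. Both pairs had an exact permutation p = 0.1, and 0.43 after Benjamini-Hochberg adjustment over the 10 pairs. Since 0.1 is the smallest p that 3 against 3 libraries allow, no pair could have passed 0.05, and the ratios are given as a description. The count was 5 without WT replicate 1, 4 without WT replicate 2 and 4 without KO replicate 1.

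**Figure D3:**
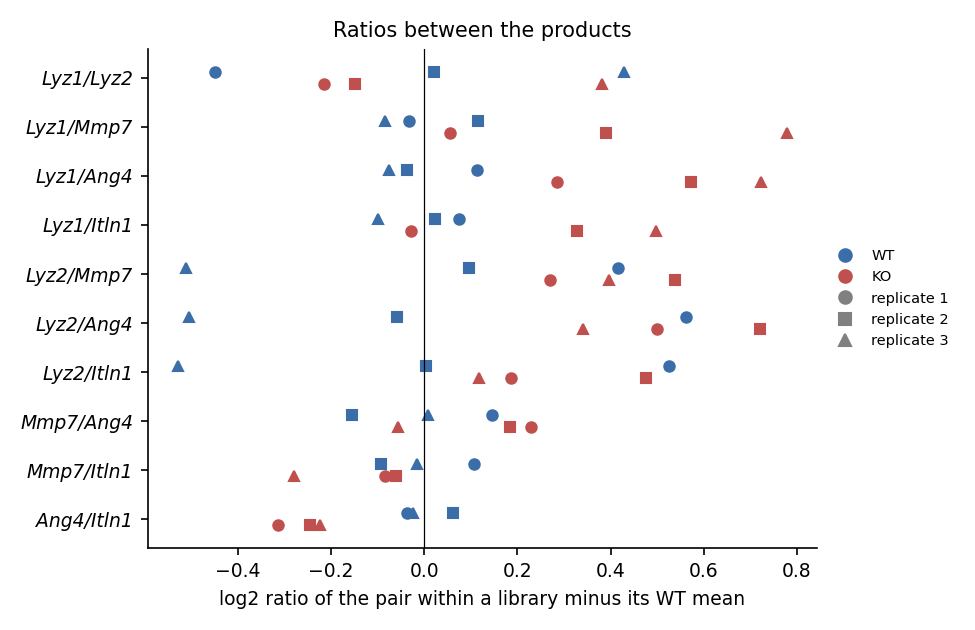
Log2 ratio of each pair of products within a library, minus its WT mean, for WT and KO libraries (symbols give the replicate). WT and KO points are apart for Lyz1/Ang4, with a difference of 0.53, and for Ang4/Itln1, with one of -0.26, and overlap in the other 8 pairs.

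Similar patterns were searched among the 1405 listed genes with a mean of at least 1 RPM, with the 5 products left out. The genes with the most similar pattern were found by the root mean square difference of the WT-centred log2 values over the 6 libraries. For Lyz1 these were AC151971.2 (0.10) and Rnps1, a splicing factor (0.11). For Lyz2 they were Ly6d, a cell surface antigen (0.14), and Slc23a3, a member of a transporter family (0.14). Mmp7 was closest to Tpsg1, a tryptase (0.08), and Bcam, an adhesion molecule (0.10). Ang4 was closest to Eci1, a mitochondrial enzyme of fatty acid oxidation, and Kif3a, a kinesin motor (0.05 each). Itln1 was closest to Prss30, a serine protease (0.10), and Paqr4 (0.11). The median difference between a product and the other listed genes lay between 0.92 and 1.09. Among the 5 products, Mmp7 and Itln1 were the most alike (0.14) and Lyz2 and Ang4 the least (0.49).

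Relatives of the 5 products were also higher in KO wherever they were listed, as were 52.5% of all listed genes by the limma test. The median log2 change of the listed genes that were higher in KO was 0.77. In the ribonuclease A family, Ang, angiogenin, was measured at 43.99, 45.9 and 39.0 RPM in WT and at 80.0, 63.3 and 54.9 RPM in KO (log2 change 0.61, limma adjusted p = 0.0119). Rnase4, whose exons share 219 bases with those of Ang on the same strand, rose by 0.61 on the log2 scale as well (limma adjusted p = 0.00243), and the reads of these neighbours may be split uncertainly. The ratio of Ang4 to Ang was 10.1, 11.2 and 13.4 in WT and 14.2, 14.9 and 14.4 in KO, without overlap.

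Of the matrix metalloproteinases and their inhibitors, Mmp15, a membrane-bound protease, rose by 0.46 on the log2 scale (limma adjusted p = 0.0105) and Timp2, an inhibitor of these proteases, by 1.12 (limma adjusted p = 0.00405). Timp2 was rare, at 3.96 ± 1.06 and 8.55 ± 0.647 RPM (SD, n = 3 each). The ratio of Mmp7 to Timp2 was 27.6 to 54.3 in WT and 24.4 to 49.7 in KO, so that the groups overlapped. Of 6 other lysozyme genes and 2 other intelectins none was listed, and their levels were not analysed here.

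Other Paneth cell genes were higher in KO as well. Of 32 further genes on the Paneth list 14 were listed. All 14 were higher with a limma adjusted p under 0.05, as were 52.5% of all listed genes. Their median log2 change was 0.91, beside 0.77 over the listed genes that were higher in KO. The largest log2 changes were those of the C-type lectins Reg3b (2.66) and Reg3g (2.13), followed by Mptx1, a pentraxin (1.30), and the defensin Defa22 (1.30). The summed level of all 14 genes was 3924 to 4689.9 RPM in WT and 6739 to 12853 RPM in KO. Most of it came from the defensin Defa24, named after its values were seen, at 3197 ± 431 RPM in WT and 6895 ± 2289 RPM in KO (SD, n = 3 each). Sox9, a transcription factor of crypt cells, rose by 0.56 on the log2 scale and Kit, a receptor tyrosine kinase, by 0.52.

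Markers of other epithelial cells moved beside the 5 products, and their part in these results was not tested. Over all listed genes, 52.5% passed the limma test as higher in KO. Of 19 goblet markers 9 were listed, 8 of them higher and 1 lower, with a summed level of 2179 to 2442 RPM in WT and 3329 to 6003 RPM in KO. They included Tff3, a trefoil peptide (log2 change 1.04), and Spink4 (1.07), and the exception was the chemokine Ccl9 (-0.74). Of 20 enteroendocrine markers 5 were listed, all 5 of them higher, among them Pyy (log2 change 1.33) and Nts (1.12), which encode gut peptides, and their sum was 260 to 318 RPM in WT and 428 to 613 RPM in KO. Of 25 enterocyte markers 11 were listed and 10 of them were lower, such as Apoa4, an apolipoprotein (log2 change -1.12), and Fabp1, a fatty acid binding protein (-1.04). The enterocyte sum was 22488 to 25582 RPM in WT and 16295 to 17699.6 RPM in KO.

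Of 15 stem cell markers 2 were listed and both were higher, namely Rnf43 (log2 change 0.50) and Rgmb (0.39). Of 14 tuft cell markers 1 was listed and was lower, Dclk1 (log2 change -0.90). None of 10 stromal markers was listed. None of the listed markers was at 0 in any library.

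**Figure D4:**
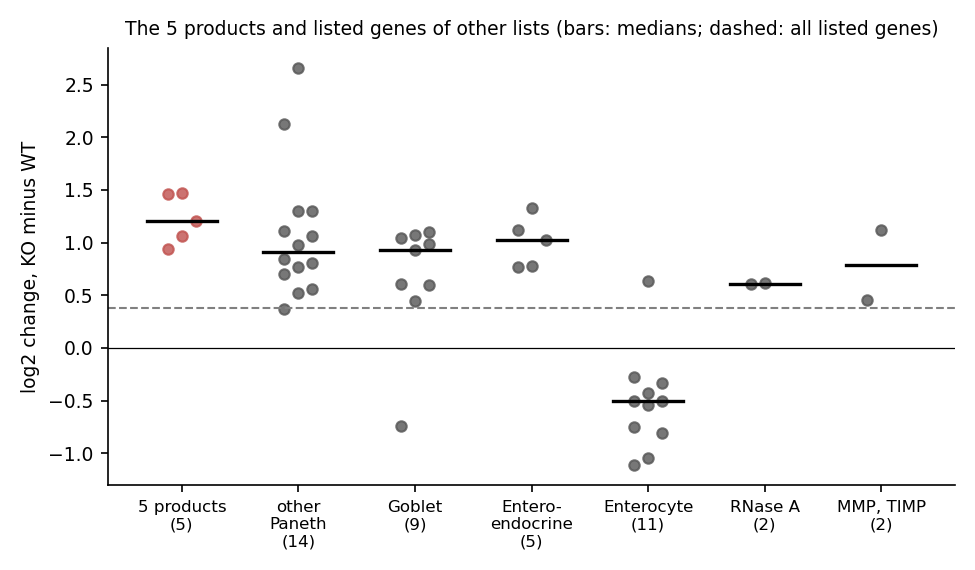
Log2 change (KO minus WT) of the 5 products and of the listed genes of each other list, with the number of genes in parentheses. Bars are medians, 1.20 for the 5 products, 0.91 for other Paneth genes, 0.93 for goblet, 1.03 for enteroendocrine and -0.50 for enterocyte genes, and the dashed line is the median of all listed genes, 0.38.

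All 5 products have short transcripts, and short genes were more often higher in KO. The summed exons of the 5 genes measure 709 bases for Ang4, 1068 for Mmp7, 1141 for Itln1, 1263 for Lyz1 and 1316 for Lyz2, which puts them between percentiles 2.58 and 7.54 of the 1393 listed genes with a length. The median log2 change was 0.63 in the 349 shortest of these genes (326 to 2497 bases) and -0.42 in the 348 longest (5983 to 41155 bases). Removing the trend also took out the general shift, so that the median of the listed genes moved from 0.38 to -0.04. When the mean change was kept, the log2 changes were 1.04 for Lyz1, 1.05 for Lyz2, 0.59 for Mmp7, 0.37 for Ang4 and 0.75 for Itln1, with limma adjusted p-values of 0.000686 to 0.0104. The part of length in the rise of the 5 products was not tested further.

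**Figure D5:**
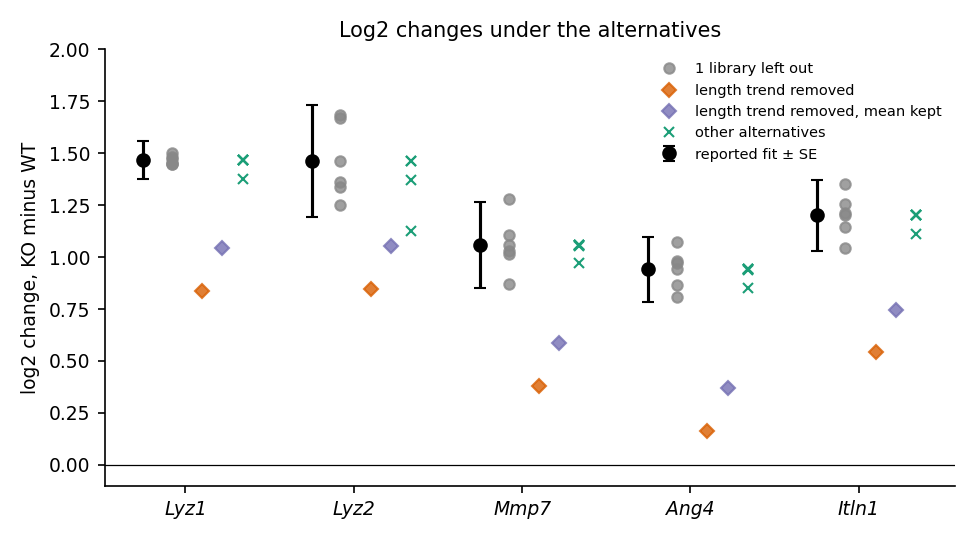
Log2 change of each product (KO minus WT) with its standard error, and under the alternatives. All values lie above 0, and the lowest for each gene, from 0.16 for Ang4 to 0.85 for Lyz2, is the one with the length trend removed.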

How the data were processed

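Per the labels and the study's methods, the authors selected poly(A) RNA, prepared directional libraries, trimmed reads with Trim Galore (0.4.2), mapped them to GRCm38 with HISAT2 (2.0.3), kept unique matches, counted them over exons of merged transcripts and tested raw counts with DESeq2. The deposited table gives RPM on a linear scale for the 1420 genes called. A further column holds the corrected p-values of the authors' test and was not used. Within each library 100% of the lower values were whole multiples of 1 step (tolerance 0.1 read), taken as 1 read. No count test was run on these inferred reads. The libraries were grouped by title.

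Each gene was tested with limma (3.58.1, R 4.3.3) on log2(RPM + 0.1), two-sided, with Benjamini-Hochberg adjustment over 1420 genes, after a test on simulated data. Log2 changes on this scale understate those of low genes. Lengths are summed GENCODE M21 exons, found for 1393 genes. Sequences come from RefSeq (GRCm38.p6, all 5 genes matched by name) and GENCODE. For Lyz2 the RefSeq start lies inside an annotated exon, so the bases searched before it include part of that exon. The 5 genes, the marker and family lists and the tests were chosen with earlier results of these data known. Genes named are the 5, Smarcad1, listed relatives, the 2 most similar genes for each, and at most 4 genes of each marker list with the largest changes, with Sox9, Kit, Defa24 and Ccl9 added after their values were seen. The values of 1 listed marker are not reported here. Poisson intervals and floors cover counting error only, and limma intervals the spread between libraries. Alternatives were a replicate block, a pseudocount of 1, a filter at percentile 25, centring, an intensity trend, removal of a length trend (loess, span 0.75) and leaving out each library. Removal of that trend with the mean change kept was added after seeing the data.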

Additional observations from a re-analysis of the deposited data

How the results depend on the processing

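Of 64 values of the 5 log2 changes under the alternatives, 63 kept a limma adjusted p under 0.05 and 0 changed direction. The exception was Ang4 with the length trend removed (0.16, limma adjusted p = 0.146). Since the table holds genes already called on these libraries, these counts describe chosen genes. Leaving out 1 library gave 1.45 to 1.50 for Lyz1, 1.25 to 1.68 for Lyz2, 0.87 to 1.28 for Mmp7, 0.81 to 1.07 for Ang4 and 1.04 to 1.35 for Itln1, and 2 to 5 pairs of products without overlap. The highest value came without KO replicate 3 for each of the 5 genes. The filter at percentile 25 left 1065 genes and removed Lyz2, which thus has no value there. Centring moved the median of the listed genes from 0.38 to 0.29. Depth limits Lyz2 most, at 20 to 85 reads.

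With the replicate block, 5 of 5 products passed, with limma adjusted p-values of 0.00228 for Lyz1 and 0.0137 for Mmp7, and 1351 listed genes passed in place of 1419. It ended no call among the 5. Same-numbered libraries correlated at -0.084, 0.09 and 0.061 in their deviations from the group means. The sources used here do not state whether same-numbered libraries share more than a number.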
